A study of Mus musculus with 48 samples.

Results

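The SR proteins and the heterogeneous nuclear ribonucleoproteins (hnRNPs), which regulate pre-mRNA splicing, were followed through the life of the mouse cerebral cortex. They were taken as the 31 genes, of 24444 measured, whose symbol is Srsf followed by a number or begins with Hnrnp, which gave 11 Srsf genes and 20 Hnrnp genes. RNA-seq was performed on cortex from a single hemisphere of each of 48 male C57BL/6J mice, of which 24 were WT and 24 were heterozygous Chd8 V986*/+ mice (HET). Each genotype was sampled in 6 mice at embryonic day 14.5 (E14.5) and in 6 mice each after 1 month, 6 months and 12 months of life. Chd8 encodes a chromatin remodeler, and the V986* allele is a premature stop made with CRISPR/Cas9 in a line from 1 founder and carried in the germline. The WT mice were littermate controls. Values are variance-stabilizing transformation (VST) expression values on a log2 scale, and their floor was set at the most frequent value, 2.1433.

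SR proteins carry RNA recognition motifs and a tail rich in arginine and serine, bind exonic enhancers and help the spliceosome to recognize nearby splice sites. The hnRNPs coat newly made transcripts, and many of them repress splice sites, so the balance between the families shapes which exons are included. In the developing brain, changes in such regulators accompany the switch from the splicing program of progenitors to that of neurons. Many of these genes also limit their own level through exons that send the transcript to decay, and the gene-level values here add up productive and unproductive transcripts.

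The genotype labels were checked first. In WT mice, Chd8 ranged from 12.33 to 12.66 (median 12.60) at E14.5 and from 11.36 to 11.87 at the later ages. In HET mice, Chd8 ranged from 11.60 to 12.03 (median 11.98) at E14.5 and from 10.94 to 11.17 later, and every HET mouse was below every WT mouse of its age. Of the markers of cortical identity, Emx1 lay between 8.0 and 9.99, Neurod6 between 10.74 and 13.58 and Tbr1 between 11.48 and 13.14, so each was well above the floor in all 48 samples. Signal from outside the cortex differed between samples at E14.5, where the mean of 26 midbrain, hindbrain and spinal cord markers was 4.81, 4.79 and 6.4 in WT replicates 2, 3 and 5, above the highest HET sample at 4.31, and 3.14 to 4.19 in the other 3 WT samples. The median SD between mice over the 31 genes was 0.134 in WT and 0.118 in HET mice at E14.5, 0.144 in WT mice at 12 months and 0.0663 to 0.0797 in the other 5 groups.

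The splicing factors fell together between E14.5 and 1 month in both genotypes. In WT mice, 28 of the 31 genes were lower at 1 month and 0 were higher (limma, Benjamini-Hochberg adjusted p below 0.1), and in HET mice 28 were lower and 1, Srsf12, was higher. Of all genes tested, 85.7% were called in WT mice, 42.3% as lower, and 86.1% were called in HET mice, 42.4% as lower. The median log2 difference of the 31 genes was −1.35 in each genotype, against 0.02 over all genes tested. In 27 of the 31 genes every mouse at 1 month was below every mouse at E14.5, in each genotype, which was so for 33.5% of all genes in WT and 33.9% in HET mice. The mean of 10 progenitor and dividing-cell markers moved over the same interval, from 11.56 to 12.32 at E14.5 to 7.12 to 7.68 at 1 month, and the mean of 8 markers of mature neurons moved from 9.51 to 10.19 to 13.98 to 14.19. Their part in the fall of the splicing factors was not tested. Without WT replicates 2, 3 and 5 at E14.5, 28 genes were lower and 1, Srsf12, was higher in WT mice, with a median of −1.44. Quantile normalization moved the median of all genes to −0.11 and that of the 31 genes to −1.67 in WT and −1.70 in HET mice. In bulk tissue, fewer cells of a type and less RNA per cell cannot be told apart.

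**Figure D1:**
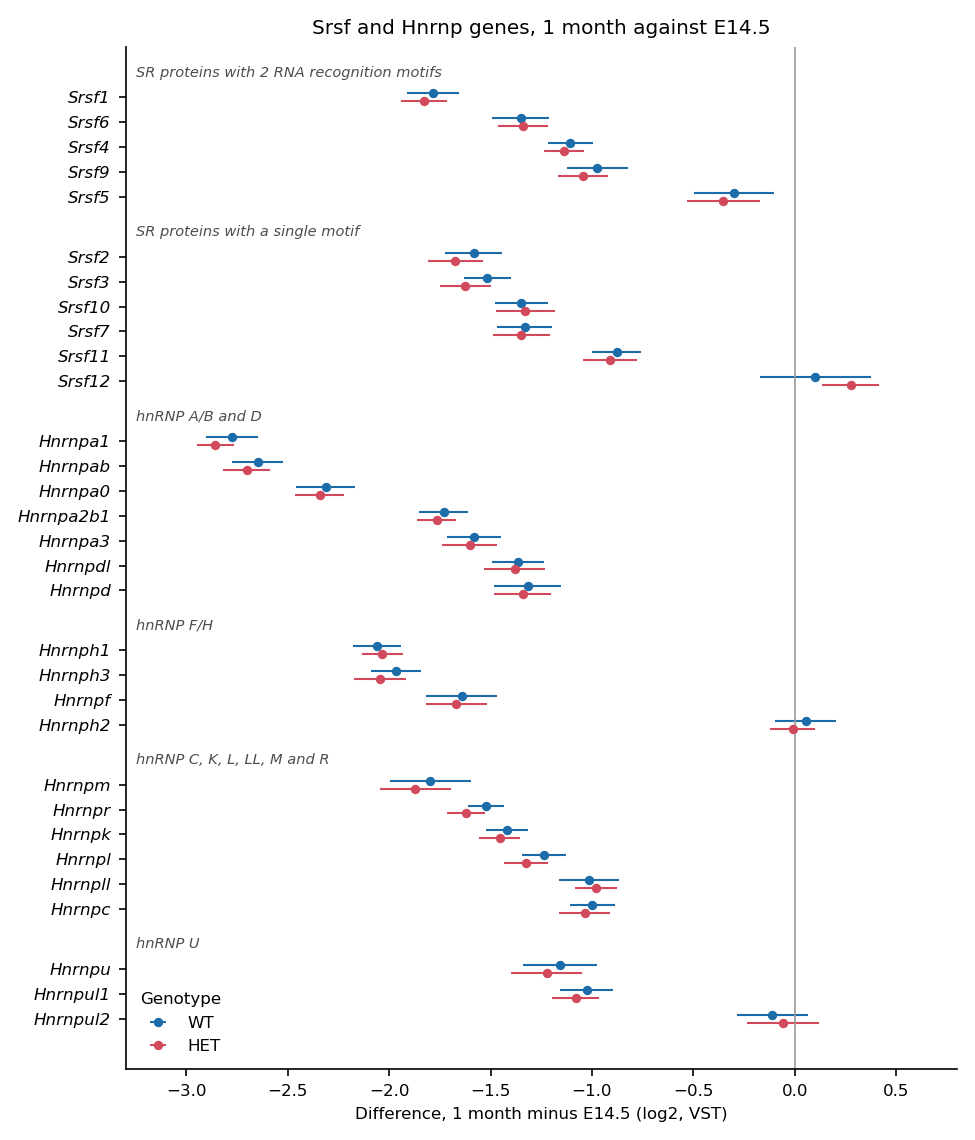
Log2 difference between 1 month and E14.5 of each of the 31 genes, grouped by subfamily, in WT (blue) and HET (red) mice, with 95% confidence intervals from limma (n = 6 mice per group). Hnrnpa1, Hnrnpab and Hnrnpa0 lie furthest to the left, between −2.31 and −2.86, and Hnrnph2, Hnrnpul2 and Srsf12 lie near 0.

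The 3 largest falls were in the hnRNP A/B and D subfamily, which holds repressors of splicing and proteins that bind unstable mRNAs. In WT mice, Hnrnpa1, which promotes exon skipping, ranged from 13.39 to 13.72 (median 13.43) at E14.5 and from 10.59 to 10.80 (median 10.70) at 1 month. In HET mice, Hnrnpa1 ranged from 13.44 to 13.59 (median 13.46) and from 10.58 to 10.69 (median 10.61). The ages were thus far apart with no overlap, and the log2 difference was −2.78 ± 0.060 (SE) in WT mice, 6.85-fold lower (adjusted p = 1.11e-15, limma), and −2.86 ± 0.043 in HET mice, 7.25-fold lower (adjusted p = 5.99e-18, limma). Hnrnpab, a relative of Hnrnpd that binds RNA and single-stranded DNA, ranged in WT mice from 14.29 to 14.64 (median 14.37) at E14.5 and from 11.67 to 11.86 (median 11.76) at 1 month. In HET mice, Hnrnpab ranged from 14.39 to 14.62 (median 14.50) and from 11.64 to 11.89 (median 11.82). Its groups did not overlap, and the log2 difference was −2.65 ± 0.060 in WT (adjusted p = 1.74e-15, limma) and −2.70 ± 0.054 in HET mice (adjusted p = 1.20e-16, limma). Hnrnpa0, which binds AU-rich elements, ranged in WT mice from 14.02 to 14.45 (median 14.23) at E14.5 and from 11.80 to 12.05 (median 11.88) at 1 month. In HET mice, Hnrnpa0 ranged from 14.01 to 14.34 (median 14.24) and from 11.84 to 11.97 (median 11.87). It was 4.97-fold lower at 1 month in WT (−2.31 ± 0.068, adjusted p = 3.22e-14, limma) and 5.08-fold lower in HET mice (−2.34 ± 0.056, adjusted p = 9.27e-16, limma), again without overlap. All 7 genes of the subfamily were lower in each genotype, with a median log2 difference of −1.73 in WT and −1.77 in HET mice. The falls of Hnrnpa2b1, which also carries RNAs along cell processes, Hnrnpa3, Hnrnpdl and Hnrnpd (AUF1), which binds AU-rich elements, were −1.73, −1.58, −1.37 and −1.32 in WT mice.

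The hnRNP F/H proteins, which bind runs of guanines, had a median log2 difference of −1.80 in WT and −1.85 in HET mice, with 3 of 4 lower. In WT mice Hnrnph1 ranged from 13.71 to 14.01 (median 13.81) at E14.5 and from 11.69 to 11.85 (median 11.76) at 1 month. Hnrnph1 was 4.17-fold lower in WT (−2.06 ± 0.055) and 4.10-fold lower in HET mice (−2.03 ± 0.048), and Hnrnph3 and Hnrnpf were lower too, with differences of −1.97 and −1.64 in WT mice. Hnrnph2 stood apart from them. Hnrnph1 lies at chr11:50190492-50200030 and Hnrnph2 at chrX:131135718-131141599, both on the plus strand of mm9. In WT mice Hnrnph2 ranged from 10.94 to 11.36 (median 11.18) at E14.5 and from 11.05 to 11.36 (median 11.23) at 1 month, and in HET mice from 10.97 to 11.29 (median 11.23) and from 11.11 to 11.22 (median 11.19). The ages overlapped in each genotype, with a log2 difference of 0.05 (95% confidence interval −0.10 to 0.20) in WT and −0.01 (−0.12 to 0.10) in HET mice, where it was called lower only under quantile normalization.

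Among the other hnRNPs, all of C, K, L, LL, M and R were lower at 1 month in each genotype, with a median log2 difference of −1.33 in WT and −1.39 in HET mice. In WT mice the differences were −1.80 for Hnrnpm, −1.52 for Hnrnpr, −1.42 for Hnrnpk, which binds poly(C), −1.24 for Hnrnpl, which binds CA repeats, −1.02 for Hnrnpll and −1.0 for Hnrnpc, which binds uridine tracts. Of the hnRNP U proteins, Hnrnpu, a scaffold protein of the nucleus, and Hnrnpul1 were lower, with differences of −1.16 and −1.03 in WT mice. Hnrnpul2 was not called in either genotype. It ranged from 12.58 to 13.15 (median 13.00) in WT mice at E14.5 and from 12.75 to 12.95 (median 12.87) at 1 month, and its log2 difference was −0.11 in WT (95% confidence interval −0.28 to 0.06) and −0.06 in HET mice (−0.23 to 0.12). It was called lower in both genotypes under quantile normalization, and in each genotype when its own replicate 1 at E14.5 was left out.

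The SR proteins had smaller median falls than the hnRNP A/B and D genes, but not than every hnRNP subfamily, contrasts that were not tested. Of the 5 with a pair of RNA recognition motifs, all were lower in each genotype, with a median log2 difference of −1.11 in WT and −1.14 in HET mice. Srsf1, which activates exons and takes part in mRNA export, ranged in WT mice from 13.62 to 14.01 (median 13.76) at E14.5 and from 11.92 to 12.03 (median 12.01) at 1 month, a difference of −1.79. Srsf6, Srsf4 and Srsf9 followed with −1.35, −1.11 and −0.97 in WT mice. Srsf5 had the smallest fall that was called. It ranged in WT mice from 11.12 to 11.54 (median 11.39) at E14.5 and from 10.82 to 11.33 (median 11.06) at 1 month, so the ages overlapped, and the difference was −0.30 ± 0.092 in WT (adjusted p = 0.007, limma) and −0.35 in HET mice (adjusted p = 0.00113, limma).

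Of the 6 SR proteins with a single recognition motif, 5 were lower in each genotype, and the median log2 difference of all 6 was −1.34 in each. The WT medians of hnRNP C, K, L, LL, M and R and of hnRNP U were −1.33 and −1.03. In WT mice the differences were −1.58 for Srsf2, a marker of nuclear speckles, −1.52 for Srsf3, the shortest protein of the family at 164 residues, −1.35 for Srsf10, which represses splicing when it loses its phosphates, −1.33 for Srsf7 and −0.88 for Srsf11. Srsf12, a relative of Srsf10, was the exception. In HET mice it ranged from 8.46 to 8.80 (median 8.64) at E14.5 and from 8.76 to 9.02 (median 8.91) at 1 month. In WT mice it ranged from 8.13 to 9.10 (median 8.90) at E14.5, with replicate 6 below the rest, and from 8.74 to 9.07 (median 8.89) at 1 month. Its log2 difference was 0.28 ± 0.066 in HET (adjusted p = 0.00109, limma) and 0.10 ± 0.129 in WT mice (adjusted p = 0.470, limma), and the difference between the genotypes, 0.17, was not called (adjusted p = 0.998, limma). Srsf12 was called higher in WT mice as well when replicates 2, 3 and 5 at E14.5 were left out. The WT mice then left were replicates 1, 4 and 6, at 8.91, 8.76 and 8.13, and only replicate 6 lay below the range at 1 month.

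**Figure D2:**
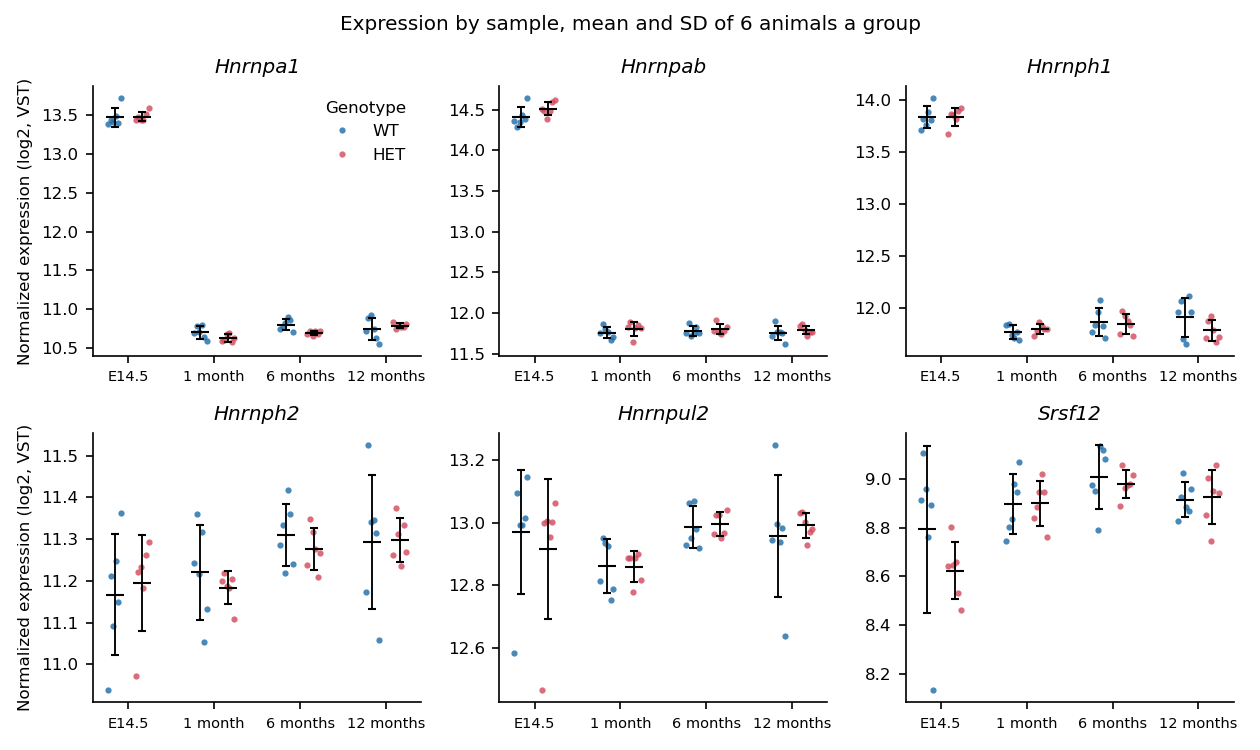
VST expression (log2) of Hnrnpa1, Hnrnpab, Hnrnph1, Hnrnph2, Hnrnpul2 and Srsf12 in each mouse at the 4 ages, with WT mice in blue and HET mice in red, and bars for the mean ± SD (n = 6). Each panel has its own scale. Hnrnpa1, Hnrnpab and Hnrnph1 drop between E14.5 and 1 month and stay low, and the other 3 genes show no such drop.

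Close relatives fell by unequal amounts. Each protein, translated from the longest annotated coding sequence, was aligned with the other 30, and 8 pairs were found in which each was the closest of the other. In Hnrnph1 and Hnrnph2, which were 93.9% identical over 446 aligned residues, the difference within a mouse (Hnrnph1 minus Hnrnph2, which depends on transcript length and is read only for its change with age) lay between 2.61 and 2.77 in WT mice at E14.5 and between 0.40 and 0.72 at 1 month. It changed by −2.11 in WT and −2.02 in HET mice (exact two-sided permutation p = 0.0022 in each, the smallest that 6 against 6 mice can give). The pair of Hnrnpa1 and Hnrnpa3 (80.8% identical) changed by −1.20 in WT and −1.26 in HET mice, Hnrnpab and Hnrnpd (72.9%) by −1.33 and −1.36, and Srsf1 and Srsf9 (74.5%) by −0.81 and −0.79, each with p = 0.0022 by the exact permutation test. Smaller changes with the same exact permutation p were found for Srsf3 and Srsf7 (65.6%), −0.18 in WT and −0.28 in HET mice, and for Hnrnpl and Hnrnpll (58.6%), −0.22 and −0.34. The ages overlapped in Hnrnpu and Hnrnpul1 (52.9%), with −0.13 and −0.14 (exact permutation p = 0.019 and 0.011), and in Srsf4 and Srsf6 (69.2%), with 0.25 and 0.20 (exact permutation p = 0.028 and 0.05). These 16 tests were not adjusted for their number.

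**Figure D3:**
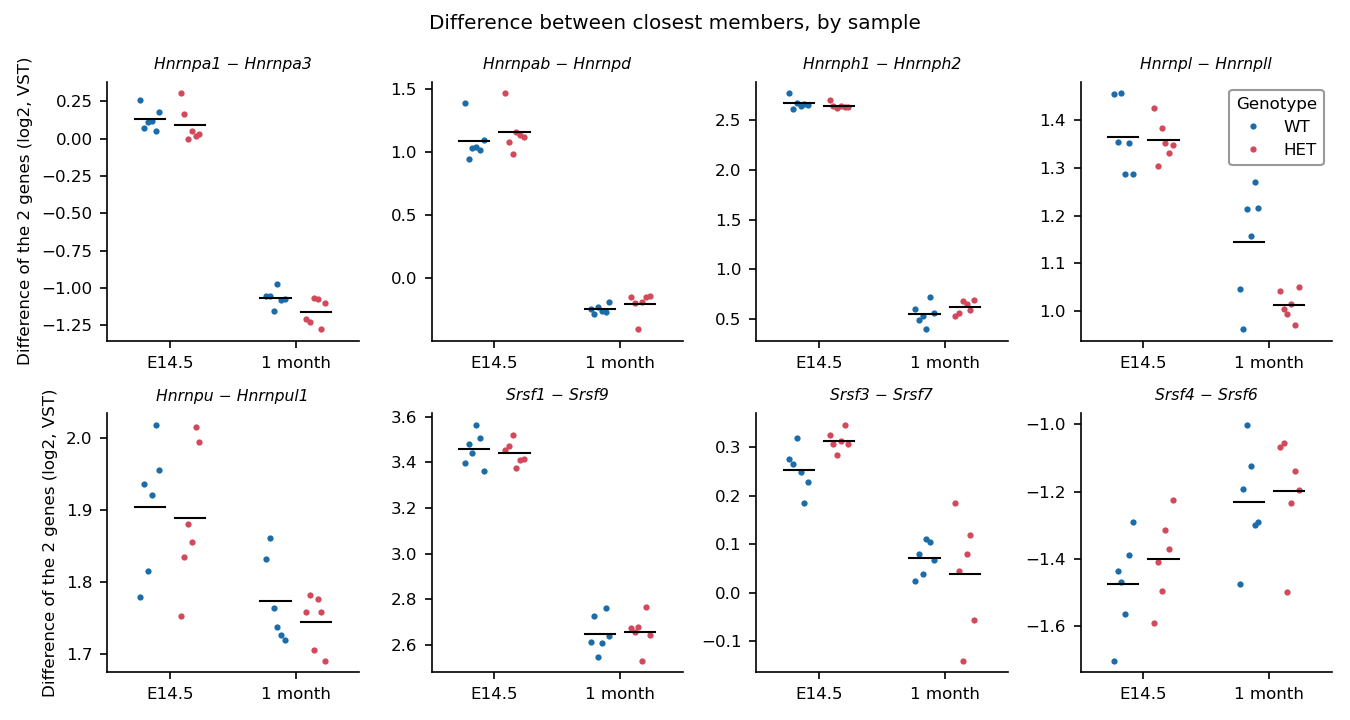
Difference in VST expression (log2) between the members of 8 closest pairs in each mouse at E14.5 and at 1 month, in WT (blue) and HET (red) mice, with lines at the means. Each panel has its own scale. In the pair of Hnrnph1 and Hnrnph2 the mean difference goes from 2.67 to 0.55 in WT and from 2.64 to 0.62 in HET mice.

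Other genes of the splicing machinery were taken from lists, to be read against the 85.7% of all genes called in WT mice, 42.3% as lower, and the 86.1% called in HET mice, 42.4% as lower. Of 31 core spliceosome genes, all 31 were lower at 1 month in each genotype, with a median log2 difference of −1.09 in WT and −1.13 in HET mice, and in WT mice the range ran from −2.02 for Snrpg, an Sm protein of the spliceosomal particles, to −0.49 for Sf3b5, a subunit that helps to select the branch point. Of 12 hnRNP-related genes under other names, 11 were lower and 1 was higher in each genotype, with Ptbp1, which represses neuronal exons in progenitors, at −2.46, Rbmx at −2.19, Ptbp2, its relative in young neurons, at −1.64, and Pcbp3 at 0.64 in WT mice. Of 16 kinases and partners of SR proteins, 11 were lower and 4 higher in WT mice, and 10 and 3 in HET mice. The kinases Srpk3 and Srpk2, which phosphorylate SR proteins, differed by 3.61 and 0.80 in WT mice, whereas Tra2b, an SR-like enhancer-binding protein, differed by −1.59 and Srrm4, which promotes neuronal microexons, by −1.37. Neuronal and tissue regulators went both ways, with 8 of 22 higher and 14 lower in each genotype. Mbnl2 and Rbfox3, regulators of mature splicing patterns, differed by 3.55 and 2.37 in WT mice, while Mbnl3 and Khdrbs1 differed by −3.28 and −1.73.

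The sequences upstream of the genes were examined for features that the symbols did not use, since the genes moved together. The 250 bases before the RefSeq transcription start (promoter table of GRCm38.p6) were placed by their own match in mm9 (NCBIM37), with 29 of 31 genes having an entry. This start lay 2349, 1402 and 1226 bases from the annotated mm9 start in Hnrnpl, Hnrnpm and Hnrnpk. The windows of Hnrnpdl, Hnrnph3, Hnrnpm, Srsf10 and Srsf12 lay wholly in annotated exons, and some others did in part. All were kept in the shares that follow. The median GC content was 65.2% in the 29 genes and 52.4% in all 32841 promoters of the table, and the median number of CG dinucleotides was 23 and 6. The GC box (GGGCGG on either strand) was found in 23 of 29 genes, or 79.3%, against 32.7% of all promoters, and CCAAT in 15, or 51.7%, against 33.9%. The letters CCGGAAG, part of the motif of ETS factors, were in 6 genes, or 20.7%, against 6.91%, the TATA box (TATAAA) in 3, or 10.3%, against 12.4%, and the E-box CACGTG in 2, or 6.9%, against 6.02%. Motif matches may overlap, and they are descriptions of letters and not of binding. The 32841 promoters can include several starts of a gene and were not matched to the 29 genes for GC content or expression. A link between these features and the fall was not tested. The windows of the 4 genes with the largest falls in WT mice and of Srsf5, the smallest called fall, are shown for comparison, each free of annotated exons, with GC box, CCAAT and CCGGAAG matches on either strand in capitals. Their positions in mm9 are chr15:103070578-103070827 on the plus strand for Hnrnpa1, chr11:51420384-51420633 on the minus strand for Hnrnpab, chr13:58229918-58230167 on the minus strand for Hnrnpa0, chr11:50190242-50190491 on the plus strand for Hnrnph1 and chr12:82046236-82046485 on the plus strand for Srsf5.
Hnrnpa1: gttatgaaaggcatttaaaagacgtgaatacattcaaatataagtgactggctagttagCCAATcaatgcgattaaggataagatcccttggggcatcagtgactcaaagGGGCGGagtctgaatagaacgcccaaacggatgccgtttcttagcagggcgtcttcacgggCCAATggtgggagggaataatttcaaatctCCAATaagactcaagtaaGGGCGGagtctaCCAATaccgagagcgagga
Hnrnpab: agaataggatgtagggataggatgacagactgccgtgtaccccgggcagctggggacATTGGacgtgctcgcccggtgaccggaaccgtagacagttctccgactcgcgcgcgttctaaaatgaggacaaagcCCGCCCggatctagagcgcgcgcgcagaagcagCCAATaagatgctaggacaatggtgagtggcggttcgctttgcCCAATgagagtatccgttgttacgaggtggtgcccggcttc
Hnrnpa0: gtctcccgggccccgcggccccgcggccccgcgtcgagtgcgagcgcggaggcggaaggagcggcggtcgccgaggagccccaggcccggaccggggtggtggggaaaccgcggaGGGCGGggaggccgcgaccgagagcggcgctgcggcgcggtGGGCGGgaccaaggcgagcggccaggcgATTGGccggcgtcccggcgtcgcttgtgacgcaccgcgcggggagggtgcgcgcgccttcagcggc
Hnrnph1: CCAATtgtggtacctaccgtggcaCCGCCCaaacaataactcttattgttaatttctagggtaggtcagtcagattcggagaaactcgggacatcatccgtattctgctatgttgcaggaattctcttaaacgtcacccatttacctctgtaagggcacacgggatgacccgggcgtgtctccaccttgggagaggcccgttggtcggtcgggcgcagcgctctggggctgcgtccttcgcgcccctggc
Srsf5: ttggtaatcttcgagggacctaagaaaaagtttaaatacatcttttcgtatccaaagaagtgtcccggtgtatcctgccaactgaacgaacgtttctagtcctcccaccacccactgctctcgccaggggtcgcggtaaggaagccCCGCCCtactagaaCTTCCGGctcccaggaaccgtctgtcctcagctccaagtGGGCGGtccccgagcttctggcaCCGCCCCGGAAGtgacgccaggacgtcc
Hnrnpa1, with the largest fall, had the lowest GC content of the 29 windows (46.0%) and Hnrnpa0, with the third largest, the highest (81.2%), so a large fall occurred at both ends of the range. The 4 windows of genes with large falls each held a GC box and a CCAAT, and that of Srsf5 held 3 GC boxes, 2 CCGGAAG and 0 CCAAT. Other genes with large falls differed from these 4. Hnrnpm and Hnrnpf held neither a GC box nor a CCAAT, Hnrnpa2b1 held a CCAAT but no GC box, and Hnrnph3 and Srsf1 held no CCAAT. Of these windows only those of Hnrnpf and Hnrnpa2b1 were free of annotated exons. Those of Hnrnpm and Hnrnph3 lay wholly within exons, and that of Srsf1 did for 238 of 250 bases. The letters missing from Hnrnpm, Hnrnph3 and Srsf1 may thus not describe a promoter.

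After 1 month the changes were small. In WT mice, 6 of the 31 genes were called between 1 and 6 months, all higher, where 24.6% of all genes were called and 12.3% as higher. The number was 3, all higher, without WT replicate 5 or 6 at 1 month. Without WT replicate 4 at 6 months 2 were higher and 1, Srsf9, was lower. Without WT replicate 3 at 6 months 6 were higher and 3, Srsf9, Srsf10 and Srsf11, were lower. Markers of other cells moved over the same interval. All 6 oligodendrocyte markers were lower at 6 months in each genotype, with median log2 differences of −0.87 in WT and −1.03 in HET mice, and both cold-inducible RNA-binding protein genes listed, Cirbp and Rbm3, were higher. Their part in the changes of the splicing factors was not tested. In HET mice, 7 were higher and 3 lower, where 26.8% of all genes were called, 14% as higher and 12.8% as lower. Hnrnpd had the largest difference. In WT mice it ranged from 11.89 to 12.15 (median 12.01) at 1 month and from 12.28 to 12.48 (median 12.34) at 6 months, and in HET mice from 11.96 to 12.09 (median 12.00) and from 12.26 to 12.38 (median 12.30). The ages did not overlap in either genotype, and Hnrnpd was higher by 0.36 ± 0.045 in WT (adjusted p = 4.72e-05, limma) and by 0.30 ± 0.033 in HET mice (adjusted p = 1.39e-05, limma), calls that held with each mouse left out. In HET mice, Hnrnpul2 was higher by 0.14 (adjusted p = 0.00685, limma), at 12.78 to 12.90 at 1 month and 12.95 to 13.04 at 6 months, also without overlap. How many of all genes were without overlap between these ages was not computed. Hnrnpdl, a relative of Hnrnpd, was higher by 0.29 in WT (adjusted p = 0.00621, limma) and by 0.14 in HET mice (adjusted p = 0.0926, limma), but in HET mice its call was lost in 8 of 12 fits with a mouse left out.

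The other calls between 1 and 6 months were differences of at most 0.23. In WT mice, Srsf5 was higher by 0.23, Hnrnpr by 0.14, Hnrnpul2 by 0.12 and Hnrnpk by 0.10, with adjusted p (limma) of 0.0646, 0.0705, 0.0630 and 0.0790, and each of these 4 lost its call in 5 to 7 of 12 fits with a mouse left out. In HET mice, Hnrnph3 was higher by 0.20, Srsf3 by 0.17, Hnrnpr by 0.17 and Hnrnph2 by 0.09, with adjusted p (limma) of 0.0260, 0.0164, 0.0113 and 0.0609. Srsf6, Srsf9 and Hnrnpll were lower in HET mice, with differences of −0.16, −0.14 and −0.10 and adjusted p (limma) of 0.0389, 0.0467 and 0.0722. Among these HET calls, Hnrnph2 was lost in 3 and Hnrnpll in 6 of the 12 fits with a mouse left out, and the others held in all 12. None of these changes differed between the genotypes by test, with 0 of 31 genes called for the genotype effect at 6 months minus 1 month, where 0% of all genes were called, and 0 below an unadjusted p of 0.05, where 3.38% of all genes were.

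Between 6 and 12 months, 0 of the 31 genes were called in WT mice by limma, where 0.00579% of all genes were called, and 1, Hnrnpc at 0.21, was below an unadjusted p of 0.05, where 6.75% of all genes were. The next were Hnrnpul1 at −0.11 and Hnrnpdl at −0.24. The WT mice at 12 months were uneven in several of the 31 genes, as given further below. In HET mice 2 genes were higher and 3 lower, where 3.43% of all genes were called, 1.07% as higher and 2.36% as lower. Srsf10 ranged in HET mice from 10.39 to 10.77 (median 10.57) at 6 months and from 10.12 to 10.46 (median 10.28) at 12 months, a difference of −0.30 ± 0.068 (adjusted p = 0.0383, limma). Srsf5 ranged from 10.79 to 11.23 (median 11.12) and from 11.12 to 11.57 (median 11.40), higher by 0.31 ± 0.073 (adjusted p = 0.0475, limma). The ages overlapped in both. Hnrnpdl was higher by 0.23 (adjusted p = 0.0527, limma), and Srsf7 and Srsf3 were lower, with −0.20 and −0.16 (adjusted p = 0.0549 and 0.0837, limma). All 5 calls were lost when HET replicate 3 at 6 months was left out, 2 were left without HET replicate 2 at 6 months or 4 at 12 months, and 3 without HET replicate 4 at 6 months or 2 or 3 at 12 months. In a single fit of all 48 samples 1 call, Srsf10, was left. Hnrnpa1 was not called in HET mice, with a difference of 0.09 (adjusted p = 0.166, limma). Its values, 10.65 to 10.72 at 6 months and 10.75 to 10.83 at 12 months, did not overlap. The share of all genes without overlap was not computed for this step, so nothing is read from it.

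**Figure D4:**
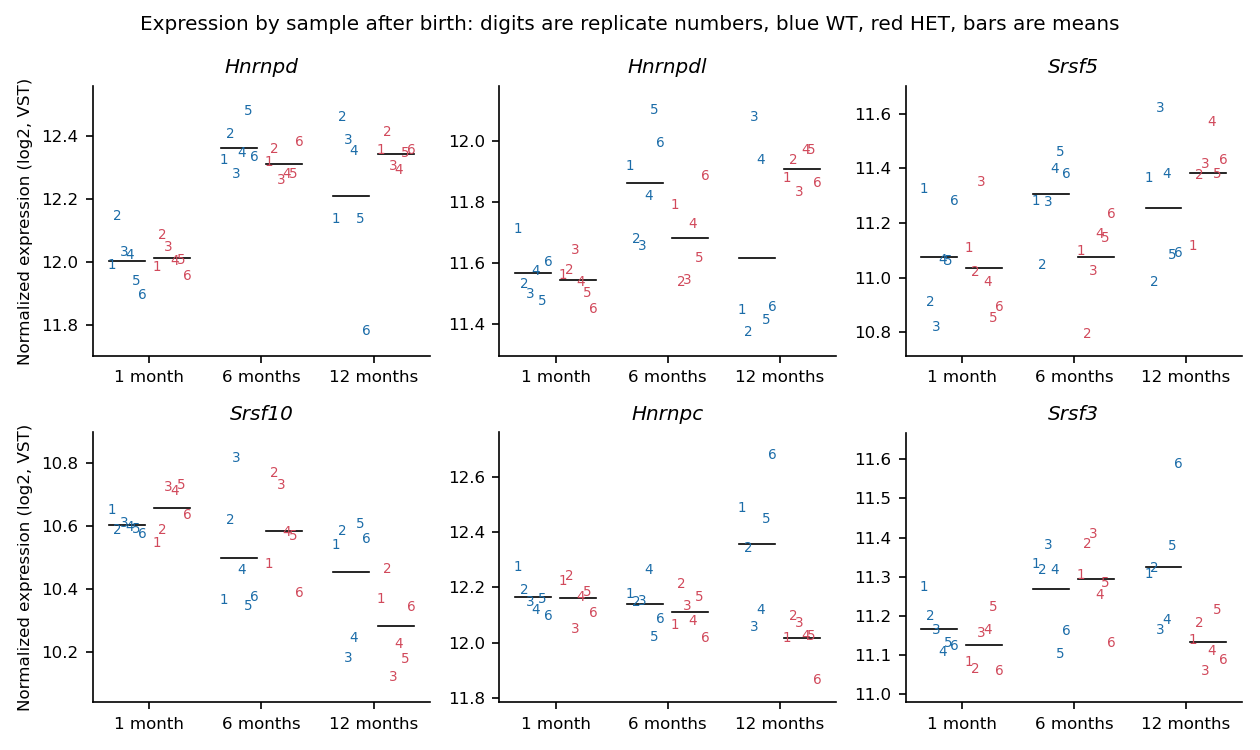
VST expression (log2) of Hnrnpd, Hnrnpdl, Srsf5, Srsf10, Hnrnpc and Srsf3 in each mouse at 1, 6 and 12 months, with each point drawn as the number of its replicate, in WT (blue) and HET (red) mice. Each panel has its own scale. At 12 months, Hnrnpdl in WT mice lies at 11.38 to 11.46 in replicates 1, 2, 5 and 6 and at 12.08 and 11.94 in replicates 3 and 4.

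No splicing factor was called between the genotypes. At E14.5, 1, 6 and 12 months, 0 of the 31 genes passed the adjusted threshold in limma, where 0.00593%, 0.139%, 0.0927% and 0.0463% of all genes did. At an unadjusted p below 0.05 there were 0, 1, 4 and 6 of the 31, where 4.56%, 8.8%, 7.59% and 11.6% of all genes were. At E14.5 the estimates were positive for 27 of the 31 genes, where 50.4% of all genes had a positive estimate, but the median was only 0.03. That median was −0.0035 without WT replicates 2, 3 and 5, which had the high midbrain and hindbrain markers, and −0.01 with the mean of the progenitor markers as a covariate. With a single mouse left out it ranged from 0.0112 (without HET replicate 6) to 0.0709 (without WT replicate 6), and it was 0.0175, 0.02 and 0.0203 without WT replicate 1, WT replicate 3 and HET replicate 5. WT replicate 6 had the highest mean of its group over the 31 genes (12.77). That mouse was kept when WT replicates 2, 3 and 5 were left out. The lowest p at this age was that of Hnrnpab, at 0.10 (95% confidence interval −0.05 to 0.25). Next came Srsf12 at −0.17 (−0.45 to 0.11), which turned to 0.0214 without WT replicates 2, 3 and 5, and Hnrnph3 at 0.07 (−0.07 to 0.22). In Srsf12 the WT mice then left lay at 8.91, 8.76 and 8.13, the last being replicate 6, which lay far below its group. Same-numbered mice deviated together in part at E14.5 (mean correlation over genes 0.226), which these intervals do not take into account. With the replicate number as a block, 0 of the 31 genes were called at this age. At 1 month the lowest p was that of Hnrnpr, at −0.09 (−0.18 to −0.0036, adjusted p = 0.549, limma), then Hnrnpa1 at −0.07 and Hnrnpl at −0.05.

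At 6 months, the lowest p was that of Srsf5, which ranged from 11.05 to 11.46 (median 11.33) in WT and from 10.79 to 11.23 (median 11.12) in HET mice, a difference of −0.23 (95% confidence interval −0.39 to −0.08, adjusted p = 0.443, limma). Of 6 oligodendrocyte markers, 0 were called by limma at this age and 5 were below an unadjusted p of 0.05, with a median of −0.23, and their part was not tested. Hnrnpa1 and Srsf6 followed at −0.11 and −0.10 (adjusted p = 0.524 and 0.541, limma). At 12 months, Hnrnpc ranged from 12.06 to 12.68 (median 12.40) in WT and from 11.86 to 12.10 (median 12.02) in HET mice, a difference of −0.34 ± 0.088 (adjusted p = 0.208, limma). Srsf3 differed by −0.19 and Hnrnpdl by 0.29 (adjusted p = 0.292 and 0.328, limma). The genotypes overlapped in all of these genes. With a single fit of all 48 samples, Hnrnpc, Hnrnpdl and Srsf3 were called at 12 months, and without WT replicate 3 at that age Hnrnpc (−0.40, adjusted p = 0.0453, limma) and Hnrnpdl (0.38, adjusted p = 0.0665, limma) were. These settings also called more of all 17288 genes, with 235 higher and 285 lower in the single fit and 109 higher and 142 lower without WT replicate 3, against 8 in the fit of that age alone.

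The differences at 12 months came with uneven WT mice. In WT replicates 1, 2, 5 and 6, Hnrnpdl was 11.45, 11.38, 11.42 and 11.46, and in replicates 3 and 4 it was 12.08 and 11.94. Cirbp, which encodes a cold-inducible RNA-binding protein, was 9.34, 9.37, 9.38 and 9.38 in the same 4 mice and 10.42 and 10.50 in replicates 3 and 4, and Rbm3, its cold-inducible relative, was 9.25, 9.58, 9.57 and 9.26 against 10.50 and 10.33. The same mice differed the other way in Hnrnpc, at 12.49, 12.34, 12.45 and 12.68 against 12.06 and 12.12. Srsf10 went with Hnrnpc, at 10.54 to 10.61 against 10.18 and 10.24, as did Srsf7, at 11.13 to 11.42 against 10.93 and 10.88. Srsf3 did so too, at 11.31 to 11.59 against 11.16 and 11.19. Srsf5 went with Hnrnpdl, at 10.98 to 11.36 against 11.62 and 11.38. Others, such as Hnrnpk, did not split. These Srsf genes and Hnrnpdl are those called in HET mice between 6 and 12 months. The part of the split in the WT result of that step was not tested. In HET mice at 12 months, Hnrnpdl ranged from 11.83 to 11.97, Cirbp from 9.89 to 10.35 and Rbm3 from 9.98 to 10.62. The part of the cold-inducible genes in these differences was not tested.

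The genotype effect itself was compared between ages. For 1 month minus E14.5, 0 of the 31 genes were called, where 0% of all genes were, and 0 were below an unadjusted p of 0.05, where 4.67% of all genes were. The lowest p values were those of Hnrnpr (−0.10), Hnrnpl (−0.09) and Srsf12 (0.17), and for 6 months minus 1 month those of Srsf5 (−0.19), Hnrnpdl (−0.16) and Hnrnpf (−0.11). For 12 months minus 6 months, 0 of the 31 were called, where 0.0579% of all genes were, and 8 were below an unadjusted p of 0.05, where 8.71% of all genes were. Hnrnpdl led these with 0.47 (95% confidence interval 0.22 to 0.72, adjusted p = 0.244, limma), followed by Hnrnpc at −0.31 (adjusted p = 0.286, limma) and Srsf5 at 0.36 (adjusted p = 0.421, limma).

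**Figure D5:**
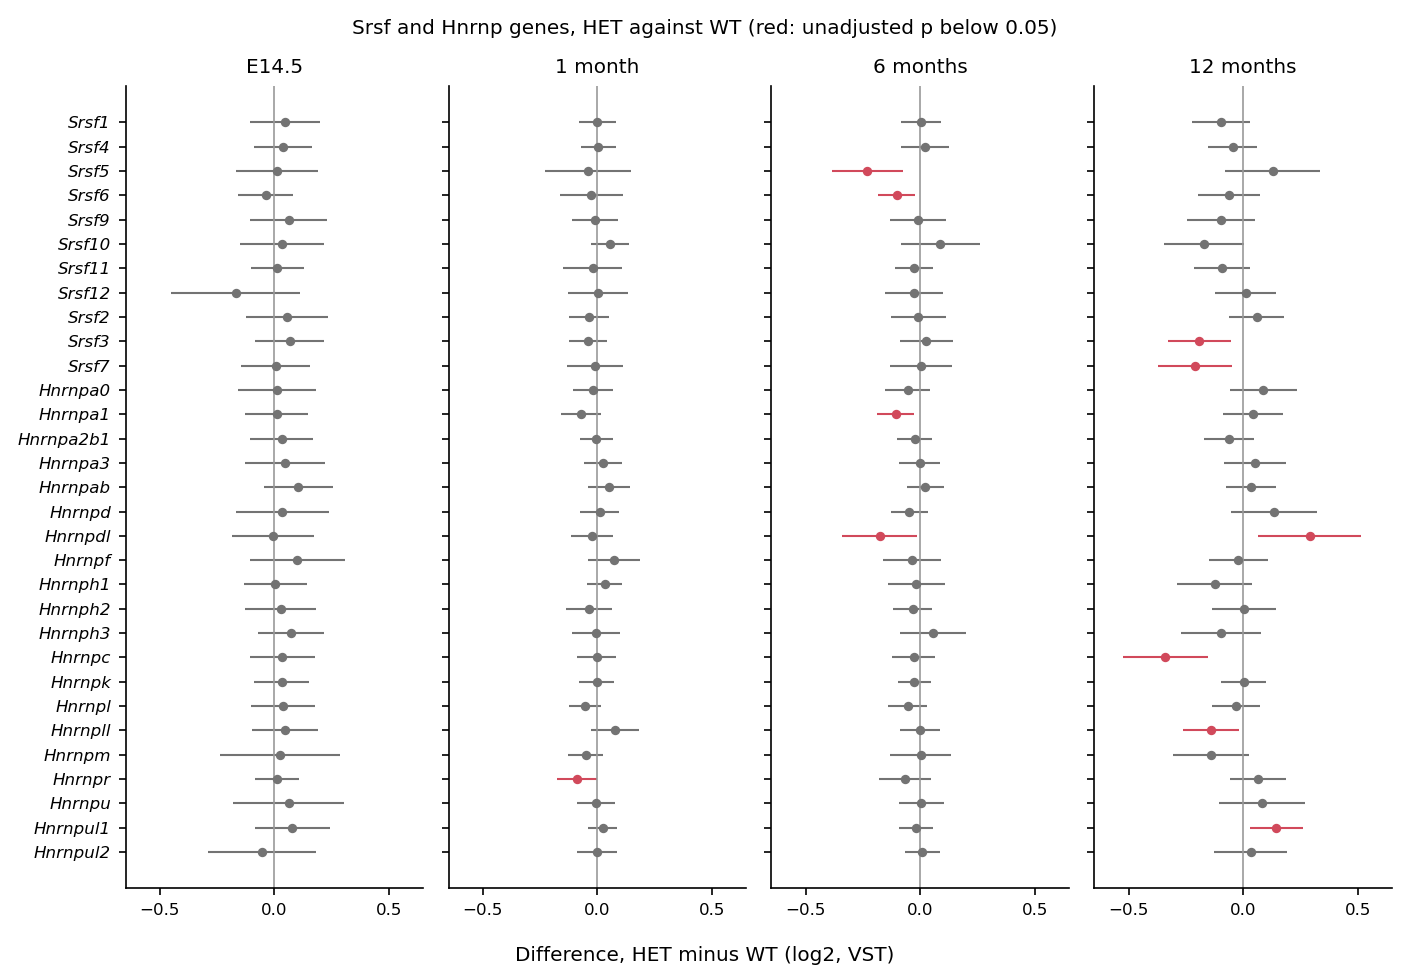
Log2 difference between HET and WT mice for each of the 31 genes at the 4 ages, with 95% confidence intervals from limma (n = 6 mice per group). Red marks an unadjusted p below 0.05, which 0, 1, 4 and 6 genes reach at E14.5, 1, 6 and 12 months, and the estimates furthest from 0 are those of Hnrnpc (−0.34) and Hnrnpdl (0.29) at 12 months.

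The values of some genes are uncertain because other genes share their sequence. Of the 50-base windows of the coding sequence, 82.3% in Hnrnpa3, 63.5% in Hnrnpk and 47.5% in Srsf3 also occurred in a protein-coding transcript of another gene, and 0 in the other 28 genes. The copy of Hnrnpa3 in the table, Gm6793, moved in the same direction, from 10.84 to 11.39 (median 11.08) in WT mice at E14.5 to 9.08 to 9.38 (median 9.31) at 1 month, and how reads were split between the genes is unknown. Copies outside annotated protein-coding transcripts were not searched. Of overlaps with annotated protein-coding genes, that of Hnrnpm with March2 was on the same strand, and those of Hnrnpab, Hnrnpf, Hnrnph3, Hnrnpk and Srsf2 were on the opposite strand, which counting without strand could not tell apart. RS or SR dipeptides, counted in the translated coding sequences, numbered 9 to 106 in the Srsf proteins and 2 to 13 in the Hnrnp proteins, and these ranges overlap.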

How the data were processed

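RNA-seq of cortex from 48 mice was analysed from a single table of 24444 genes by 48 samples, 8 groups of 6 separate mice. The authors deposited log2 values from the DESeq2 variance-stabilizing transformation, with batch effects corrected at a step not given in the sources used here. Before that, reads were filtered, trimmed, aligned to mm9 with STAR 2.5.2b and quantified with Salmon 0.11.3 (the submitters' processing notes list DESeq 1.22.2). The batch is not named in the sources used here, but in the deposited values the mean of replicates 1 to 3 over all groups equals that of replicates 4 to 6 to within 3.38e-14 for every gene. The labels name a TruSeq kit and the methods a stranded KAPA kit. The table holds no read counts, so the number of reads behind a single value is unknown.

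Each comparison was fitted with limma 3.58.1 (R 4.3.3, intensity trend) on its 12 samples, over the genes that exceeded the floor of 2.1433 by 0.5 or more on average, and the genotype effects were compared between ages in a fit of all 48. Calls used a Benjamini-Hochberg adjusted p below 0.1 over all genes tested. The members and gene lists were chosen with earlier results of these data known. Every member was named, with full statistics for those called or, where more than 10 were called, the 3 largest changes in each direction, and, where fewer than 3 were called, the 3 lowest unadjusted p. Protein pairs (Biopython 1.88, local alignment) were tested with a two-sided exact permutation test (scipy 1.17.1). Upstream sequence came from the RefSeq promoter table and was matched to mm9. Alternatives covered filters, scaling, variance prior, threshold, covariates (read depth from the study's list of samples, markers, replicate set), the replicate block, single libraries left out and, chosen after seeing the data, 3 WT libraries left out at E14.5. Some markers of cortical identity are not reported here.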

Additional observations from a re-analysis of the deposited data

Results flagged for a closer look

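A single mouse lay far from the other 5 of its group, by Dixon's criterion at 95%, in 16 of the 248 combinations of gene and group. Chance alone does so in about 1 of 20.

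Of the 7 mice concerned, 3 were embryos, and these held 11 of the 16 values. WT replicate 6 at E14.5 stood apart in 6 genes. It was the highest in Hnrnpa1 at 13.7217 (others 13.39 to 13.49), in Hnrnpf at 11.0248 (10.46 to 10.62), in Srsf3 at 12.8964 (12.57 to 12.69), in Srsf4 at 11.394 (11.10 to 11.16) and in Srsf9 at 10.6502 (10.23 to 10.28). It was the lowest in Srsf12, at 8.1341 (8.76 to 9.10). HET replicate 1 at E14.5 was the lowest in Hnrnph2 at 10.9727 (11.18 to 11.29), in Hnrnph3 at 11.0601 (11.31 to 11.41), in Hnrnpul1 at 12.3847 (12.61 to 12.75) and in Hnrnpul2 at 12.465 (12.95 to 13.06), and WT replicate 1 was the lowest in Hnrnpul2 at 12.5839 (12.99 to 13.15). The mean over the 31 genes was lowest in replicate 1 and highest in replicate 6 at E14.5 in both genotypes, at 12.51 and 12.77 in WT and 12.54 and 12.72 in HET mice. The mean of the progenitor and dividing-cell markers was also highest in replicate 6, at 12.32 in WT and 12.26 in HET mice, and its part was not tested.

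After birth the distant samples were all HET, from which nothing about the genotype is read. The median SD of the splicing factors was widest after birth in WT mice at 12 months, at 0.144, against 0.0701 in HET mice of that age. At 1 month, replicate 3 was low in Hnrnpab at 11.6437 (11.81 to 11.89) and high in Srsf6 at 11.521 (11.17 to 11.30), and replicate 6 was low in Hnrnph2 at 11.1082 (11.18 to 11.22). At 6 months replicate 5 was low in Hnrnpll at 10.5899 (10.73 to 10.77), and at 12 months replicate 6 was low in Hnrnpc at 11.8638 (12.02 to 12.10).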

How the results depend on the processing

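The fall between E14.5 and 1 month held under every alternative run, with 28 to 29 genes lower in WT and 28 to 30 in HET mice, and with 28 to 29 genes called in WT and 29 to 30 in HET mice when a mouse was left out. The smaller counts moved. Between 1 and 6 months in WT mice (6 called), the count was 10 with the replicate block, 10 under quantile normalization, 3 with read depth as a covariate, 2 without an intensity trend and 2 at an adjusted p below 0.05, and 3 to 9 with a mouse left out. In HET mice (10 called) it was 5 in 1 fit of all 48 samples, 5 with the replicate block in that fit, and 8 to 11 with a mouse left out. Between 6 and 12 months in HET mice (5 called) it was 1 in the fit of all samples, 1 with the replicate block added, 3 without a filter on low values, 0 without an intensity trend, 2 at an adjusted p below 0.05 and 0 to 5 with a mouse left out, and quantile normalization gave 3 higher and 1 lower in place of 2 and 3. Between the genotypes (0 called), the count was 1 at 6 months with the replicate block (Srsf5), and at 12 months 3 in the fit of all samples, 2 with the replicate block added and 0 to 2 with a mouse left out. Over all genes at 12 months these fits called 235 higher and 285 lower, and 227 and 290 with the block, against 8. The cause of these shifts was not tested. The estimate for Srsf12 between the genotypes at E14.5 turned from −0.17 to 0.0214 when the 3 WT libraries with high midbrain and hindbrain markers were left out. Replicate 6, the lowest of its group in Srsf12 at 8.13, was among the WT libraries kept. Same-numbered mice of the 2 genotypes deviated together only in part. At E14.5 their mean correlation over genes was 0.226 (4 of 6 above 0.1), against −0.0443 for mice of other numbers. At 1, 6 and 12 months it was 0.0186, 0.046 and −0.034. The numbers were not taken as pairing, so the main fit at E14.5 leaves this shared variation in its spread. Leaving out single mice was not run for the comparisons of genotype effects between ages. The table has no counts, so the reads behind a single value are unknown, and depth entered only as the read depth of each library.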
